A study of Mus musculus with 47 samples.

Results

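The 6 genes described here, Lhx6, Nkx2-1, Sox6, Satb1, Maf and Mef2c, encode transcription factors used to trace interneurons to the medial ganglionic eminence (MGE). They were taken by name from the 22800 gene symbols of a table of raw read counts. Their reads were followed in single NPY-positive neurons, each collected by drawing the cytosol into a patch pipette, and the question was which of the factors were read together in 1 cell of the auditory cortex (AC) or of hippocampal area CA3. The main cells were 10 of AC (N3X, N4, N5, N7, N8, N41 to N44 and N46) and 13 of CA3 (N26 to N34 and N37 to N40), with 3 NPY-positive cells of CA1 (N1, N2X and N6) and the columns N45 of AC and N36 of CA3 given beside them. The animals were male and female mice of 3 to 8 weeks, 8 in all, in which a fluorescent protein reports the Npy gene. The methods of the paper call the strain NPY-hrGFP, while its introduction and the series record call it NPY-EGFP. According to the paper, AC cells lay in the outermost cortical layers of coronal slices and CA3 cells in the stratum lacunosum moleculare of horizontal slices, so slice plane and region cannot be told apart. No label names the mouse of a cell, so each region was taken as 1 sample, SDs over cells describe cells alone, and no test between regions could be made.

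Interneurons of cortex and hippocampus arise mainly in the MGE, the caudal ganglionic eminence (CGE) and the preoptic area of the embryo. In the MGE the homeodomain factor Nkx2-1 gives progenitors their identity and switches on Lhx6, a LIM homeodomain factor that is kept in many mature interneurons of this origin. Sox6 and Satb1 act after Lhx6 during migration and maturation, Maf is a bZIP factor of MGE-derived interneurons, and Mef2c is a MADS-box factor of maturing neurons that pyramidal cells and microglia also express. Nkx2-1 is turned off in most interneurons bound for the cortex and stays on in other MGE-derived cells.

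The cells had the marks of GABAergic neurons. Summed reads on Gad1, Gad2 and Slc32a1 came to 2221 to 17749 CPM (reads scaled to 1000000 reads on genes) in AC, 3033 to 15512 CPM in CA3 and 9371 to 11437 CPM in CA1. Npy itself was read in each of these cells, with the lowest value, 249.9 CPM, in N38. Totals ran from 1715012 to 6265431 reads per cell in AC, from 2229519 to 7949918 in CA3 and from 601781 to 3202430 in CA1. Genes with at least 1 read numbered 3163 to 6288 per cell in AC and 3679 to 8149 in CA3. The columns N4 and N4X of AC held nearly the same counts (r = 0.999769, and a chi-square per degree of freedom of 2.20 against at least 37.03 in 399 other pairs of the same region). N4 was used alone, except where all labelled cells are taken below, in which both columns were averaged.

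Promoter sequence is shown for the pair of factors read in CA3 and in no main AC cell, Lhx6 and Nkx2-1, and for Mef2c, which was read in every main cell. Each line gives the 250 bases before the first transcribed base, 5′ to 3′ on the strand of the gene, from RefSeq (GRCm38.p6), with capitals where a searched motif was met. Lhx6 lies at chr2:36105409-36105658 on the minus strand, Nkx2-1 at chr12:56536909-56537158 on the minus strand and Mef2c at chr13:83503784-83504033 on the plus strand.
Lhx6: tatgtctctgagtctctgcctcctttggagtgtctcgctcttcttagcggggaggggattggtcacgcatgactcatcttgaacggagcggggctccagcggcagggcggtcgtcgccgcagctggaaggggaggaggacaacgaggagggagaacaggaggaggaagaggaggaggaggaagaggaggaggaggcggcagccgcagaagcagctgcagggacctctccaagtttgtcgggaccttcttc
Nkx2-1: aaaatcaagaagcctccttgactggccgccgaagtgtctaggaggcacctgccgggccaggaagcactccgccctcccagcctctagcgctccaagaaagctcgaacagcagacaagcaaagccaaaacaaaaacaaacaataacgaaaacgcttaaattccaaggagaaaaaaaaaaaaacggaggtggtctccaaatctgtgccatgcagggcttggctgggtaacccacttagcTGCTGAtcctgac
Mef2c: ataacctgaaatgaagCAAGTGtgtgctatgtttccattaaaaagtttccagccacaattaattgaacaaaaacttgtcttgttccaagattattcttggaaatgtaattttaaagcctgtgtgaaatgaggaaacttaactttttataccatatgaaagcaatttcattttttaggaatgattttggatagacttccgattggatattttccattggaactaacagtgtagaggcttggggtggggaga
The motifs searched, on both strands, were CTCAAG and CAAGTG for NKX2 factors, TGCTGA for MAF factors and TAATTA for LIM homeodomain factors. The Nkx2-1 window held TGCTGA, beginning 13 bases before the start, and the Mef2c window held CAAGTG, beginning 234 bases before it, while the Lhx6 window held none of the 4. The table gives 3 starts each for Lhx6 and Mef2c, of which the outermost is shown, and the other Mef2c windows held CTCAAG and TAATTA in one and TGCTGA in the other. In the same 250 upstream bases of all 32851 promoter windows, CTCAAG occurred in 13.3%, CAAGTG in 11.6%, TGCTGA in 16.1% and TAATTA in 4.84%. A match of these lengths is thus common and describes letters only. The table held entries for 5 of the 6 genes. The genes themselves lie, in GENCODE vM21 (GRCm38), at chr2:36081953-36105408 (Lhx6, minus strand), chr12:56531958-56536908 (Nkx2-1, minus strand), chr7:115470872-116038796 (Sox6, minus strand), chr17:51736187-51833290 (Satb1, minus strand), chr8:115682942-115707794 (Maf, minus strand) and chr13:83504034-83667080 (Mef2c, plus strand). Lhx6 and Satb1 overlap small or provisional genes on their own strand, and Nkx2-1, Sox6 and Maf have antisense partners (Gm26973, Gm45025 and Sox6os, Gm15655). Satb1 also overlaps the provisional gene Gm6934 on the opposite strand. The library kit does not mark strand, so reads of a gene and of its partner on the opposite strand cannot be told apart.

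Lhx6 and Nkx2-1 were read in CA3 and not in the main AC cells, Maf and Mef2c were read in nearly all cells of both regions at higher mean levels in CA3, and Sox6 and Satb1 were read in few cells of either. The map of reads by cell shows the 6 factors side by side.

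**Figure D1:**
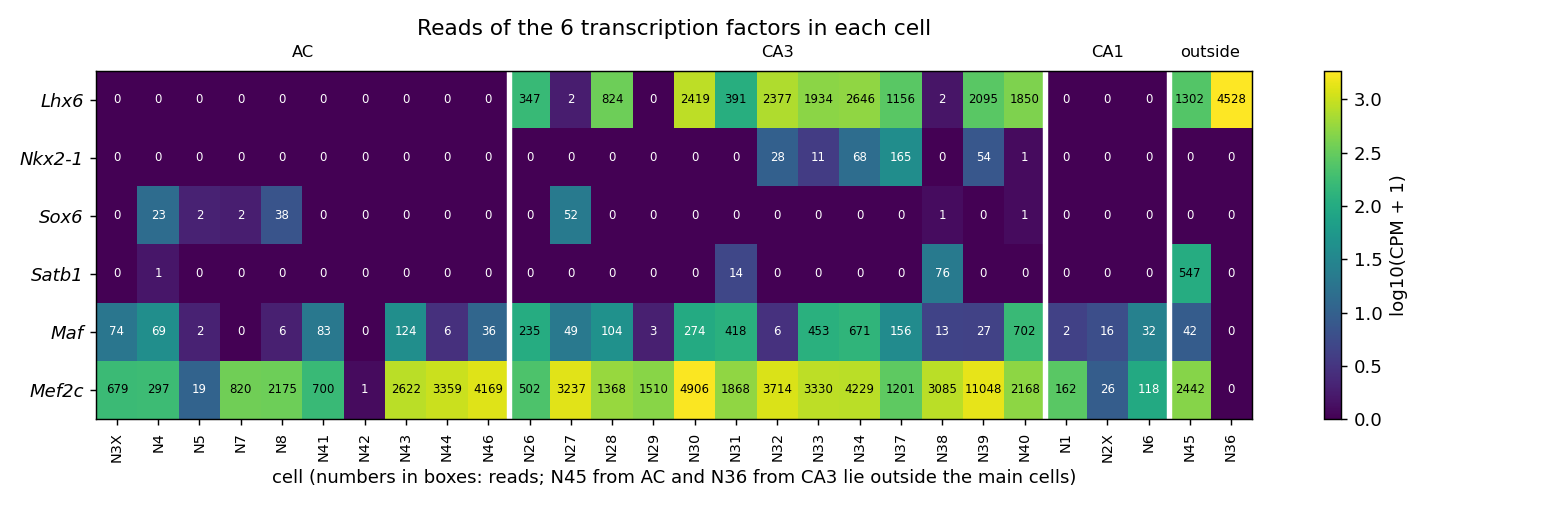
Reads of the 6 factors in each of the 10 AC, 13 CA3 and 3 CA1 cells and in the columns N45 (AC) and N36 (CA3), which lie outside the main cells. Numbers in the boxes are reads and the colour is log10(CPM + 1); the Lhx6 and Nkx2-1 entries are 0 in all 10 AC cells, and the Mef2c entries are above 0 in all 23 main cells.

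Nkx2-1, the first factor of the series, was met at low read numbers. In CA3, 6 of 13 cells had a read (46.2%, exact Clopper-Pearson 95% interval 19.2 to 74.9%), and in AC none of 10 did, which allows a share of up to 30.8%. The CA3 cells were N37 with 165 reads, N34 with 68, N39 with 54, N32 with 28, N33 with 11 and N40 with 1. N37 alone held 50.5% of all Nkx2-1 reads of CA3. Summed over cells, Nkx2-1 stood at 6.69 CPM in CA3 (exact Poisson 95% interval 5.99 to 7.46). In AC its 0 reads allow up to 0.0881 CPM, the level of 3 reads over all reads of the region, so it was at least 76.0-fold higher in CA3. These intervals and limits cover counting error only, since reads of amplified cDNA are not independent molecules.

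In CA3 Lhx6 had reads in all cells but N29, 12 of 13 (92.3%, 64.0 to 99.8%), and in AC it had none in any of the 10. Its CA3 reads ran from 0 in N29 to 2646 in N34, and per cell the lowest, median and highest values were 0, 270.8 and 865.1 CPM. The cells fell into 2 sets with a wide space between them. N27 and N38 held 2 reads each and N29 none, while the other 10 held at least 347 reads and at least 108.8 CPM. Summed over cells, Lhx6 stood at 328.4 CPM in CA3, at least 3727-fold above the limit of its 0 reads in AC. Of all 10630 genes read in at least 3 of the 23 main cells, 0.828% had no read in AC and a read in 6 or more CA3 cells, as Nkx2-1 did. Only 3 genes, 0.0282%, had no read in AC and a read in 12 or more CA3 cells, Lhx6 being one of them.

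Both factors were set against each other within CA3. All 6 cells with Nkx2-1 also had Lhx6, at 1156 to 2646 reads and a median of 464.0 CPM. The 7 cells without Nkx2-1 had 0 to 2419 Lhx6 reads and a median of 108.8 CPM, so the values of both sets overlapped. N30, the main cell with the highest Lhx6 CPM, had no Nkx2-1 read. N37, the cell with the most Nkx2-1 reads, lay at the CA3 median of Lhx6. Over the 13 cells, which share their region and differ in depth, the levels had a Spearman rho of 0.388. Depth moved with the split: totals were 3131095 to 7949918 reads in the cells with Nkx2-1 and 2229519 to 3669876 in the cells without it, and median Gad1 was 10269 against 4850 CPM. When every cell was thinned to 1715012 reads, the share of CA3 cells with Nkx2-1 was 38.5%.

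A mark of the animal also moved with Nkx2-1, as was seen after the values were known. Reads on the 4 Y-linked genes Ddx3y, Eif2s3y, Uty and Kdm5d came to 810 to 2966 in 7 CA3 cells and to 0 or 1 in the other 6. Nkx2-1 was read in 6 of those 7 cells and in 0 of those 6, the exception being N38 with 1095 Y-linked reads and no Nkx2-1. Lhx6 was read in 7 of those 7 and in 5 of those 6. In AC, 4 cells had 324 to 2187 Y-linked reads and no Nkx2-1. The part of the animal, of its sex or of depth in the Nkx2-1 split was not tested, and without a mouse for each cell they cannot be told apart.

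**Figure D2:**
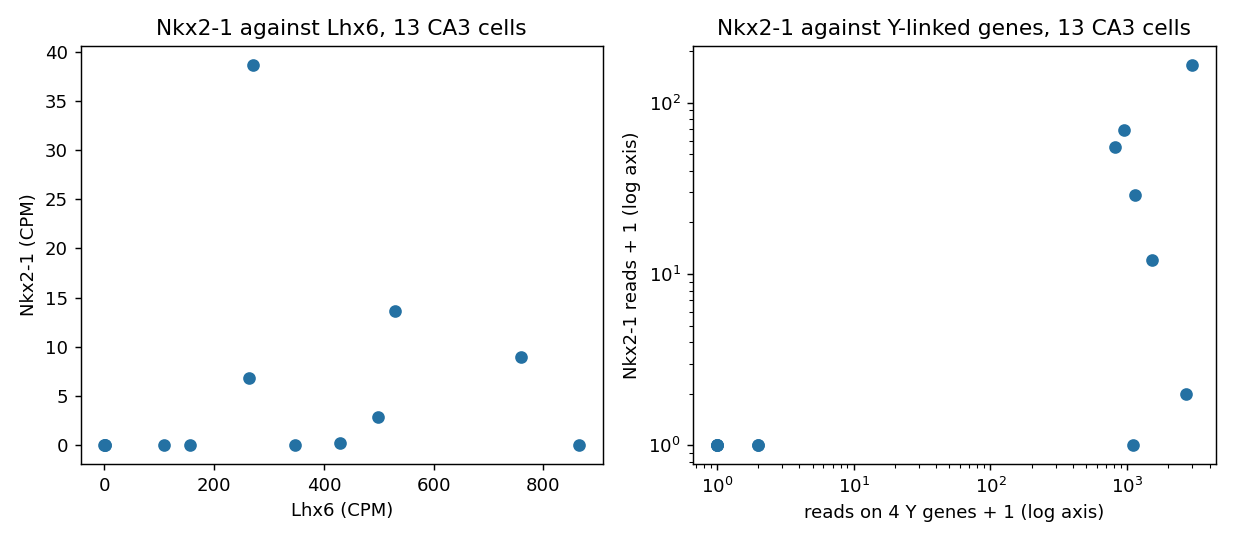
Nkx2-1 in the 13 CA3 cells, each point 1 cell: left, Nkx2-1 against Lhx6, both in CPM; right, Nkx2-1 reads against summed reads on 4 Y-linked genes, both plus 1 on log axes. The 6 cells with Nkx2-1 lie at 263.5 to 759.2 CPM of Lhx6 and at 810 to 2966 Y-linked reads.

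Sox6, an SRY-box factor that acts after Lhx6, had reads in 4 AC cells (interval of the share 12.2 to 73.8%) and in 3 CA3 cells (5.04 to 53.8%). In AC the cells were N8 with 38 reads, N4 with 23, and N5 and N7 with 2 each. In CA3 they were N27 with 52 reads, and N38 and N40 with 1 each. N27 thus held 96.3% of the CA3 reads, and N8 held 58.5% of the AC reads. Summed levels were 1.91 CPM in AC (1.47 to 2.43) and 1.11 CPM in CA3 (0.830 to 1.44), and the regions overlapped, with N27 (20.8 CPM) above the highest AC cell, N4 (13.4 CPM). N27, the one CA3 cell with 10 or more Sox6 reads, had 2 Lhx6 reads. The 23 reads of N4 were not met again in N4X, where 43.5 would be due by depth and 0 were counted.

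Satb1, a chromatin organiser downstream of Lhx6, was read in 1 AC cell of 10, N4, with 1 read. It was read in 2 CA3 cells of 13, N38 with 76 reads and N31 with 14. The summed level of Satb1 was 0.0294 CPM over the AC cells and 1.84 CPM over those of CA3, a ratio of 62.7 whose exact interval, given the single AC read, runs from 10.98 to 2505. N38 held 84.4% of the CA3 reads, so the ratio describes that cell. No cell had both Satb1 and Nkx2-1. N38 and N27, the CA3 cells with the most Satb1 and the most Sox6, were both among the 3 CA3 cells with at most 2 Lhx6 reads.

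Maf had reads in 8 AC cells (interval of the share 44.4 to 97.5%) and in all 13 cells of CA3 (75.3 to 100%). In AC its values ran from 0 in N7 and N42 over a median of 6.45 CPM to 40.2 CPM in N4. In CA3 they ran from 0.947 CPM in N29 over a median of 43.8 CPM to 163.1 CPM in N40. The upper cells of CA3 lay above every AC cell, and the lower ones overlapped with AC. At 10 or more reads Maf was present in 5 AC cells and 11 CA3 cells. Summed levels were 11.7 CPM in AC (10.6 to 12.96) and 63.7 CPM in CA3 (61.5 to 66.0), a ratio of 5.42.

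Mef2c was read in all 23 main cells, as was 3.09% of all genes tested. In AC the lowest, median and highest values were 0.261 CPM in N42, 260.2 CPM and 1284 CPM in N46. In CA3 they were 225.2 CPM in N26, 840.6 CPM and 1754 CPM in N30. The regions overlapped, and the 2 AC cells with the lowest values, N42 with 1 read and N5 with 19, lay far below all others. Summed levels were 435.8 CPM in AC (428.8 to 442.9) and 863.0 CPM in CA3 (854.8 to 871.3), a ratio of 1.98.

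Mef2c is also a gene of microglia, and microglia markers were read in some of the cells. Summed reads on C1qa, C1qb, Cx3cr1, P2ry12 and Csf1r reached 3707 CPM in AC, in N42, and 1864 CPM in CA3, in N27, with a read in 8 of 10 and 10 of 13 cells, and Tmem119 was at 0. In the AC cells without such a read, N43 and N7, Mef2c stood at 840.0 and 363.9 CPM. In the CA3 cells without one, N30, N31 and N37, it ran from 281.3 to 1754 CPM. N42, the cell with the most microglia reads, had the lowest Mef2c. Across cells Mef2c level and microglia CPM had a rho of -0.286 over the 10 cells of AC and 0.138 over the 13 of CA3, and Maf level one of -0.198 and -0.193. Pyramidal cell markers reached at most 137.3 CPM in AC and 203.6 CPM in CA3, and were at 0 in the median CA3 cell. Of the 2 tested, 1 was called higher in AC (by at least 1 in mean log2 level, as set out next), beside 17% of all genes tested. This was Slc17a7 (1.47), at 16.4 CPM summed in AC against 1.02 CPM. The other, Neurod2, leaned to CA3 without being called (-0.945), at 0.0881 CPM summed in AC against 10.3 CPM. Markers of glia moved with the region. Of the 4 microglia markers tested, 2 were called higher in AC, with a median difference of 1.87, beside 17% of all genes tested. Astrocyte markers reached 1089 CPM in AC, with a read in 7 cells, and 0.421 CPM in CA3, with a read in 1. Oligodendrocyte markers reached 367.1 CPM in 4 AC cells and 955.1 CPM in 10 CA3 cells with a read, and Mbp was called higher in CA3 (-3.03). The part of such RNA in the levels below was not tested.

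On the scale of log2(count divided by the scran size factor, plus 1), mean levels were compared between regions, and a difference of at least 1 is spoken of as called. Of all 10630 genes tested, 40.1% were higher in CA3 by that size and 17% were higher in AC. Of the 6 factors, 4 were called higher in CA3 and 0 were called higher in AC. Lhx6 was at 0 in AC and 8.16 ± 4.10 in CA3 (SD over cells), a difference of -8.16 (AC minus CA3). Nkx2-1 was at 0 and 1.99 ± 2.57, a difference of -1.99 that would not be called with a pseudocount of 10 (-0.81). For Maf the means were 3.98 ± 2.87 and 6.55 ± 2.64, with a difference of -2.57, and for Mef2c they were 9.10 ± 3.44 and 11.25 ± 0.93, with a difference of -2.15. The SDs of Maf are as large as its difference, and the Mef2c difference was -1.28 without N42 and -1.68 without N5, the AC cells with the lowest values. As the log2 ratio of summed CPM, Mef2c differed by -0.99, which is not called. Sox6 (1.42 ± 2.10 and 0.63 ± 1.73, difference 0.78) and Satb1 (0.16 ± 0.50 and 0.78 ± 1.96, difference -0.62) were not called. The median of all genes tested lay at -0.55, and relative to it the differences were -7.61 for Lhx6, -1.44 for Nkx2-1, 1.33 for Sox6, -0.07 for Satb1, -2.02 for Maf and -1.60 for Mef2c. With all labelled cells, Maf (-0.82), Mef2c (-0.51) and Nkx2-1 (-0.88) were no longer called, and Sox6 (-0.45) and Satb1 (0.18) had the other sign. Among the columns this adds are some of few reads, with at most 3 reads on Gad1 and Gad2 and with glial markers. Oligodendrocyte markers stood at 119814 CPM in N23 of CA3, and astrocyte markers at 11220 CPM in N22 of CA3. The part of such columns in these values was not tested.

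**Figure D3:**
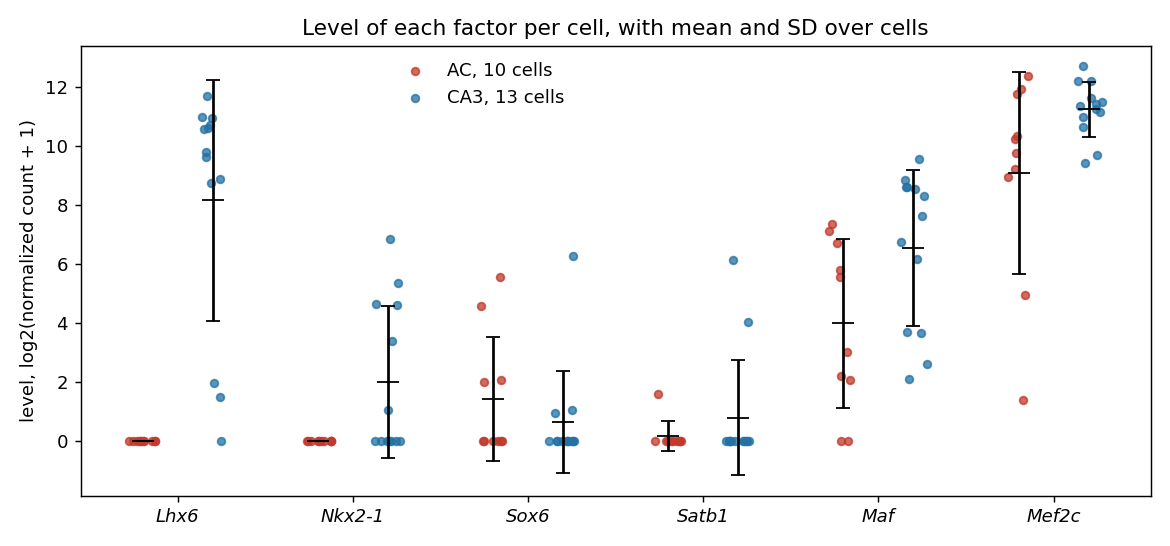
Level of each factor, log2(normalized count + 1), in 10 AC cells and 13 CA3 cells, each point 1 cell, with the mean and the SD over cells as black bars. Lhx6 and Nkx2-1 sit at 0 in every AC cell, and the Mef2c and Maf points of the regions overlap.

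Levels of different genes were set in order only per length, as CPM per kb of exon (RPKM) with the exons of all transcripts joined. In CA3 the mean values were 67.7 ± 58.9 for Lhx6, 52.6 ± 29.5 for Mef2c, 7.87 ± 7.13 for Maf, 1.92 ± 3.83 for Nkx2-1, 0.110 ± 0.388 for Sox6 and 0.0995 ± 0.302 for Satb1 (SD, 13 cells). Lhx6 and Mef2c do not differ beyond their spread, and with the longest coding transcript as length Mef2c came first (131.8 against 93.5 RPKM). Sox6 and Satb1 changed places too (0.189 against 0.303 RPKM). In AC the order was Mef2c at 27.8 ± 28.6 RPKM, Maf at 1.60 ± 1.93, Sox6 at 0.144 ± 0.295 and Satb1 at 0.00306 ± 0.00969 (SD, 10 cells), with neighbours whose SDs overlap.

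The factors were then counted per cell. An AC cell had a read on 2.3 ± 0.823 of the 6 (SD, 10 cells, range 1 to 4) and a CA3 cell on 3.77 ± 0.832 (13 cells, range 2 to 5). At 10 or more reads the means were 1.6 and 3.23. In AC, 5 cells had Maf and Mef2c alone, N42 had Mef2c alone, and the other 4 had Sox6 besides Mef2c, 3 of them with Maf and 1 with Satb1. In CA3, 5 cells had the set of Nkx2-1, Lhx6, Maf and Mef2c (N32, N33, N34, N37 and N39), and N40 had this set with Sox6. A further 3 (N26, N28 and N30) had Lhx6, Maf and Mef2c, and N31 had these with Satb1. N27 joined Sox6 to Lhx6, Maf and Mef2c, N38 joined Sox6 and Satb1 to them, and N29 had Maf and Mef2c, the commonest set of AC. No cell of either region had all 6. Over the 23 cells the number of factors and the number of genes detected had a rho of 0.404. Within AC (10 cells) this was 0.768, so AC cells with more factors were cells with more genes, and within CA3 (13 cells) -0.0873. With total reads the rho was -0.356 in AC and 0.599 in CA3.

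**Figure D4:**
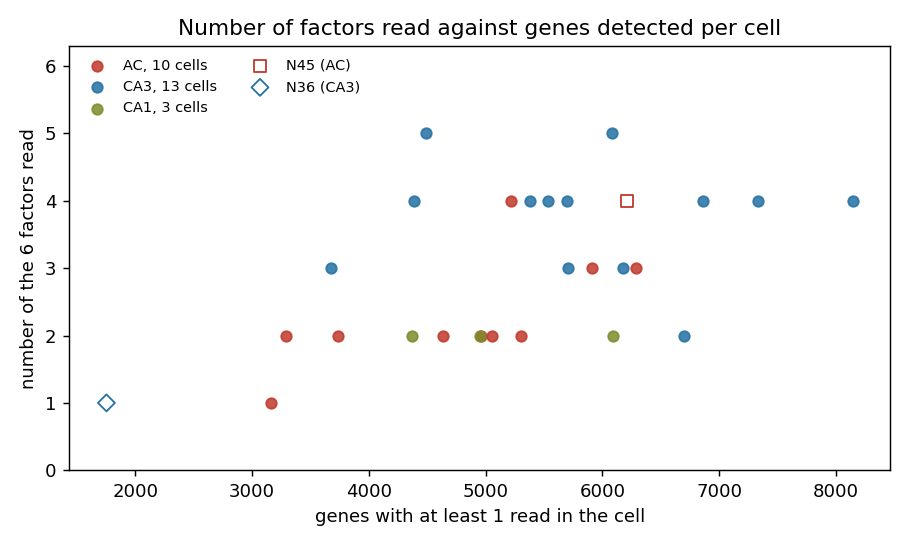
Number of the 6 factors read in a cell against the number of genes with at least 1 read in it, for 10 AC, 13 CA3 and 3 CA1 cells and the columns N45 and N36. CA3 points lie mostly at 3 to 5 factors and AC points mostly at 2 to 3. Cells had 3163 to 6288 genes in AC and 3679 to 8149 in CA3.

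All 3 CA1 cells had Maf and Mef2c and no other factor, the commonest set of AC. Lhx6, Nkx2-1, Sox6 and Satb1 had 0 reads in all 3, which allows up to 0.596 CPM over their summed reads. Maf had 2, 16 and 32 reads in N1, N2X and N6, or 9.93 CPM summed (7.37 to 13.1) and 18.6 CPM without N2X. Mef2c had 162, 26 and 118 reads, or 269.2, 8.12 and 95.9 CPM, and 60.8 CPM summed (54.2 to 68.0). The sum rests on N2X, which has the most reads and the lowest value, and was 152.8 CPM without it, and N1 alone lies above the AC median. Microglia markers stood at 164.5 CPM in N1, 0 in N2X and 195.1 CPM in N6, and their part in the Mef2c reads was not tested. All 3 CA1 cells had Prox1, a CGE factor, and 453 to 955 Y-linked reads.

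Outside the main cells, N45 was the one labelled AC cell with Lhx6. It held 1302 Lhx6 reads (247.3 CPM), 547 Satb1 reads (103.9 CPM), 42 Maf reads and 2442 Mef2c reads, with 0 on Nkx2-1 and on Sox6. Among the main cells the highest Satb1 value, in N38, was 20.7 CPM. N45 was also the cell with reads on Sst (265), the peptide of a main class of MGE-derived interneurons, and on Elfn1 (196), both at 0 in all main cells. Gad1, Gad2 and Npy were present there with 10339, 7975 and 1477 reads. Microglia markers stood at 682.4 CPM in N45, with 315 reads on Tmem119, and oligodendrocyte markers at 534.1 CPM, and their part in its Mef2c reads was not tested. N36 of CA3 showed Lhx6 and no other factor. Its 4528 Lhx6 reads (1835 CPM) were the most of any column, and Maf and Mef2c, read in all 13 main CA3 cells, were at 0, which allows up to 1.22 CPM. N36 had 1753 genes detected, fewer than any main cell, with 40427 Gad1 reads.

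Among other labelled columns, Sox6 was the factor that stood out. It was read in 5 of the 15 columns with at most 3 reads on Gad1 and Gad2, at up to 669.9 CPM, and in 7 of the 32 other columns, at up to 20.8 CPM. The columns of few Gad reads with Sox6 were N9, N14, N15, N22 and the dentate gyrus column N12. N16, labelled an NPY-negative neuron, was also among the 15 and had no Sox6 read. The markers of oligodendrocyte precursors Pdgfra, Cspg4 and Gpr17 stood at 3859 CPM in N14 and 3485 CPM in N15, and were at 0 in N9, N22 and N12 and in all main and CA1 cells. N52, with 10822 CPM of Pdgfra and no read on Cspg4 or Gpr17, had no Sox6 read, which allows up to 73.3 CPM at its 40934 reads. Astrocyte markers stood at 11220 CPM in N22 and 15097 CPM in N12, but also at 13230 to 14538 CPM in N10, N13 and N17, which had no Sox6 read, and at 8.98 CPM in N9. Of the other factors, Lhx6 was at 0 in all 19 columns outside the cells named above, Nkx2-1 had 1 read in N49, and Satb1 had up to 30 reads in N50 and 18 in N22. Mef2c was read in 3 of these 19, N47, N48 and N4X. N48 held 3632 Mef2c reads with 0 reads on Gad1, 6 on Gad2 and 840.5 CPM of microglia markers. The 15 columns of few Gad reads had 40934 to 595759 reads, against 601781 to 7949918 in the others, and the part of depth or of other cell types in their Sox6 was not tested.

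**Figure D5:**
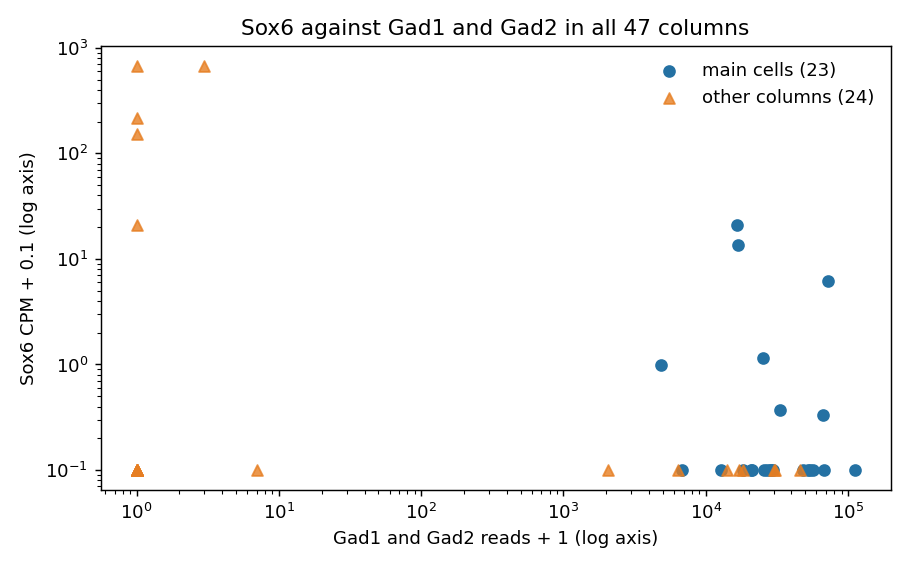
Sox6 (CPM + 0.1) against summed Gad1 and Gad2 reads (plus 1), both on log axes, for the 23 main cells and 24 other columns. The Sox6 values above 20.8 CPM belong to columns with at most 3 Gad1 and Gad2 reads, at the left edge.

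Other genes of the lineage were taken from a list of 13 genes reported downstream of Lhx6 or used as MGE markers, of which 8 passed the filter on reads. Of these, 4 were called higher in CA3 and 2 higher in AC, beside 40.1% and 17% of all genes tested, with a median difference of -1.28 against -0.55. Zeb2, which acts in the fate of MGE-derived cells, differed by -3.37, with reads in 7 AC and 12 CA3 cells. Ackr3, a chemokine receptor of migrating interneurons, had 0 reads in AC and was read in 5 CA3 cells, at 35.3 CPM summed over all 13. Tox3 was higher in AC by 2.38 and Tox2 by 1.60. Sst, Lhx8, Cxcr4 and Elfn1 had 0 reads in all main cells, and Pvalb was read in 2 CA3 cells.

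Factors shared by all forebrain GABAergic neurons gave a mixed picture. Of 8 listed, 7 were tested, 1 was called higher in CA3 (Dlx5, -3.35) and 1 higher in AC (Dlx2, 2.71), with a median of 0.10, beside 40.1% and 17% of all genes. Dlx1 (-0.91) and Sp9 (0.50) were not called, although the count higher in CA3 went to 2 with library size, TMM or poscounts factors and without any of 12 cells, N42 among them, and to 0 among genes read in at least 10 cells. The count higher in AC went to 2 without any of 3 cells, N43 among them. Among the GABAergic markers Gad1 (0.17) and Gad2 (0.34) were not called, and the vesicular transporter Slc32a1 was higher in CA3 (-2.29). Of 6 CGE genes, 3 were tested and 2 were called higher in AC, Prox1 (4.49) and Nr2f1 (2.22), beside 17% of all genes. With all labelled cells 1 was called higher in AC and 1 in CA3, and 3 were called higher in AC with a pseudocount of 0.1. Cell by cell, Prox1 was read without Lhx6 in 7 AC cells, Lhx6 without Prox1 in 10 CA3 cells, and both in 2 CA3 cells, N26 and N38. Neither was read in N4, N42 and N46 of AC and N29 of CA3. Some of these counts rest on few reads: N38 held 2 Lhx6 and 8 Prox1 reads, and N41 of AC held 1 Prox1 read. At 10 or more reads Prox1 was present in 5 AC cells and 1 CA3 cell.

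Relatives from the same gene families were counted as well. Of 18 relatives, 8 were tested, 2 were called higher in AC and 1 in CA3, with a median of -0.35, beside 17% and 40.1% called and a median of -0.55 over all genes tested. With 1 cell left out the AC count fell as far as 1 (without N4, N31, N38 or N40) and the CA3 count rose as far as 3 (without N4). Sox5, the closest relative of Sox6, was higher in AC by 2.68, with reads in 5 AC and 2 CA3 cells. Mafg, a small MAF protein, was higher in AC by 1.41, although its summed CPM was lower there (51.9 against 89.7). Mef2a was higher in CA3 (-1.58), although its summed CPM was lower there (101.5 against 138.7). Nkx6-2 (-0.91) was not called.

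The genes whose levels ran most like each factor over the 23 main cells were ranked by Spearman rho among about 5963 genes read in at least 10 of these cells. For Lhx6 they were H2afz (0.82), Nrsn1 (0.81) and Id2 (0.79), all higher in CA3. For Nkx2-1 they were Ddx3y (0.76), which is one of the Y-linked genes above, Papss1 (0.73) and Zfp644 (0.72). For Sox6 they were Rmdn3 (0.79) and Ccdc9 (0.70), each read in 4 AC and 6 CA3 cells. For Maf they were Oaz1 (0.73), Ssb (0.71) and Gm5428 (0.70), and for Mef2c Krtcap2 (0.70), Napa (0.70) and Puf60 (0.68). The difference between regions enters each of these values, and Satb1 was read in too few cells to be ranked. Within CA3 (13 cells) the rho was 0.368 between Lhx6 and Maf, 0.423 between Lhx6 and Mef2c, 0.0179 between Nkx2-1 and Maf and -0.198 between Maf and Mef2c. These values are descriptions over cells that share a region and differ in depth.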

How the data were processed

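Libraries were made from the cytosol of single cells with the Nextera XT kit. The authors deposited 1 table of raw counts of reads per gene symbol (47 columns, 22800 symbols, all values whole), without normalization. The paper's methods name Trimmomatic and Flexbar for trimming, STAR with the Ensembl GRCm38 reference transcriptome for alignment and HTSeq for counting, while the submitters' processing notes name featureCounts. Ensembl identifiers were turned into symbols with the annotation version the paper gives, and counts of the same symbol were averaged. Reads that map to near-identical copies could be lost or split there.

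From the counts, CPM per cell and scran 1.30.0 size factors (pools of 10 and 20 cells) were computed in R 4.3.3, and levels are log2(normalized count + 1). Genes read in at least 3 of the 23 main cells were compared. The main cells are those that an earlier match to the cells shown in the paper had found, which was not repeated here. According to the paper, 10 AC and 20 CA3 neurons passed its quality control, so the 13 CA3 cells here are fewer than its set. Intervals are exact (Poisson for reads, Clopper-Pearson for shares) at 95%, and a count of 0 was given the limit of 3 reads. Each region was 1 sample, so no p-value was computed. The members, cells and gene lists were chosen with earlier results of these data known.

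The genes named are the 6 factors, the 4 genes of each list with the largest difference, the GABAergic markers, Prox1 and the 3 genes most like each factor. A few genes of this rule are not reported here, while the lists keep them in their counts. Tox2, Pvalb and the genes at 0 were named after their values were seen, as were the Y-linked genes and the columns outside the rule. Alternatives were library size, TMM of edgeR 4.0.16, poscounts of DESeq2 1.42.0, other scran filters, pseudocounts of 10 and 0.1, other filters on reads, all labelled cells, thinning to 1715012 reads (seed 1), summed CPM and each cell left out. The CA1 sums without N2X were added after the data were seen. The steps were tested on simulated data. Other steps ran in Python 3.11.15 (scipy 1.17.1, pandas 2.3.3, numpy 2.4.6, matplotlib 3.10.9).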

Additional observations from a re-analysis of the deposited data

Results flagged for a closer look

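Satb1 in the AC cell N4 lay apart from the other 9 AC cells: its level was 1.58 and theirs were 0, so the gap was the whole range of the group. The value rests on 1 read, which N4X, the column with nearly the same counts, met with 4. A gene read in 1 cell of a group has such a gap by construction.

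Sox6 had 4 reads in the dentate gyrus column N12, which entered no comparison of regions, and this is above the 3 reads that a count of 0 allows. N12 had at most 3 reads on Gad1 and Gad2.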

How the results depend on the processing

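The Lhx6 difference (-8.16) was -11.16 with a pseudocount of 0.1 and -4.86 with all labelled cells. As the log2 ratio of summed CPM, with 3 reads in place of fewer in AC, Lhx6 was at -11.86, Nkx2-1 at -6.25 and Satb1 at -4.39. The Lhx6 and Nkx2-1 values are bounds, and with its 1 AC read itself Satb1 has the ratio of 62.7 given above. Relative to the median of all genes, Mef2c turned to 0.19 with all labelled cells. Genes called higher in AC numbered 845 with all labelled cells and 989 among genes read in 10 or more cells. Those higher in CA3 numbered 2750 with a pseudocount of 10 and 2798 among genes read in 10 or more cells. Of the 6 factors, 1 was called higher in AC with a pseudocount of 0.1 (Sox6, 1.40), and 1 remained called in CA3 with all labelled cells, Lhx6, where a CA3 cell had 2.57 factors on average. The set of all labelled cells includes columns with at most 3 reads on Gad1 and Gad2, and the cause of these shifts was not tested. With each cell left out in turn the differences were -8.84 to -7.89 (Lhx6), -2.17 to -1.56 (Nkx2-1), 0.29 to 1.27 (Sox6), -0.79 to -0.19 (Satb1), -2.92 to -2.08 (Maf) and -2.49 to -1.28 (Mef2c), with 0 to 1 factors called higher in AC (Sox6, without N27) and 4 in CA3. Among single cells, Mef2c depends most on N42 (-1.28 without it), Sox6 on N4 (0.29 without it) and N27, and Satb1 on N38 (-0.19 without it). Factors per cell were 2.11 to 2.44 in AC and 3.67 to 3.92 in CA3. The 5 scalings other than the scran factors used kept the direction and the call of all 6 differences. No paired analysis was possible because each sample is 1 cell and the labels give the regions no shared replicate numbers. Read totals limit what 0 reads can show, and no mouse is named for a cell.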
